A study of Bos taurus with 30 samples.

Results

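DES and KCNMB1, a pair of genes used as markers of smooth muscle, were followed through skin biopsies of cattle that differ in tick resistance. They were taken as all probe sets (groups of short array probes that read 1 transcript) annotated to either symbol, which gave 1 probe set each, 2 genes of the 7016 with a probe set bright enough to keep. Both were selected on these arrays' own values, with their differences between groups already known, above all those of resistant skin after infestation and of resistant against susceptible skin before it. Their levels and differences are therefore given as a description, with no test between groups.

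The 30 arrays came from 13 animals of an F2 population bred from Gyr, a Bos indicus breed, and Holstein, a Bos taurus breed. They comprised resistant skin at 0 h (before infestation, n = 5), 24 h (n = 6) and 48 h (n = 5), from 6 animals, and susceptible skin at 0 h (n = 3), 24 h (n = 6) and 48 h (n = 5), from 7 animals. The biopsies were of the sites meant for feeding, those at 0 h before any tick was put on, and neither age nor sex is given in the labels used here. Values are log2 signals, so that 1 unit is a 2-fold difference and, with 3 to 6 arrays a group, precision is limited by their number.

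Desmin, the product of DES, is the intermediate filament protein of muscle cells, smooth, skeletal and cardiac. It ties the contractile filaments to each other and to the membrane. KCNMB1 encodes the beta-1 subunit of the large-conductance calcium-activated potassium (BK) channel, which makes the channel open more readily when calcium rises, and the outflow of potassium then relaxes the cell. In skin, smooth muscle lies in the walls of arteries and veins and in the small muscles that raise the hairs, so a biopsy holds a little of it among epidermis, connective tissue and glands. In such whole tissue, fewer cells of a type and less RNA per cell cannot be told apart.

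Several arrays stand apart, and some numbers of animals are in doubt. Likeness was read over the 100 probe sets that best told animals apart at 24 h and 48 h, so that matches among arrays of those times are largely fixed by the choice. Of the 8 arrays at 0 h whose animal had another array, which had no part in it, 5 were most like an array of the same number. The other 3 were the resistant arrays numbered 03, 04 and 05, which were most like arrays of animals 04, 05 and 06. Changes within an animal are therefore given with the numbers of the labels and with these 3 moved. Group means do not depend on the numbers. The animals of a group are separate, but arrays at different times come from the same animals.

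DES varied widely. Its signal ranged over 4.42 log2 units in the 30 arrays, a 21.4-fold span, and its SD of 1.19 was larger than that of 98.7% of the 13809 probe sets kept. In resistant skin at 0 h the arrays of animals 01 to 05 had 10.50, 9.11, 9.15, 9.37 and 8.26. Animal 01 was the highest by more than 1 unit and the array numbered 05 the lowest. At 24 h the 6 resistant arrays had a lowest value of 9.20, a median of 10.80 and a highest of 11.40, and at 48 h animals 01, 02, 03, 05 and 06 had 12.50, 11.64, 11.73, 8.66 and 12.10. At 48 h 4 of the 5 resistant arrays lay above every resistant array at 24 h and 0 h, while that of animal 05 lay below every array at 24 h and below 4 of the 5 at 0 h. The array numbered 05 had the lowest DES of its group at each of the 3 times.

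In susceptible skin at 0 h DES had 10.21, 10.62 and 11.76 in animals 09, 10 and 11. The 6 susceptible arrays at 24 h had a lowest value of 8.58 (animal 10), a median of 10.05 and a highest of 12.50 (animal 09). Animals 07, 09, 10, 11 and 13 had 11.04, 10.81, 10.19, 12.68 and 10.50 at 48 h. No run over time was shared by the susceptible animals: animal 09 was highest at 24 h, while animals 10 and 11 were lowest then. Animal 11 at 48 h had the highest DES of the 30 arrays.

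KCNMB1 varied less, over 3.26 log2 units (9.60-fold), with an SD of 0.73, larger than that of 93.8% of the probe sets kept. Its resistant arrays at 0 h, animals 01 to 05, had 8.03, 7.93, 7.88, 7.67 and 7.08. The 6 resistant arrays at 24 h were close together, with a lowest value of 7.88, a median of 8.05 and a highest of 8.43. Animals 01, 02, 03, 05 and 06 had 9.36, 8.74, 8.54, 7.10 and 8.38 at 48 h. As for DES, 4 of the 5 resistant arrays at 48 h lay above every resistant array at 0 h, and animal 05 lay apart below them. KCNMB1 was near the middle of its array's signals: it lay below the array's median in 3 arrays, resistant 05 at 0 h and 48 h and susceptible 13 at 24 h, whereas DES lay above the median in all 30.

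Susceptible animals 09, 10 and 11 had 7.60, 8.43 and 9.07 of KCNMB1 at 0 h. At 24 h the susceptible arrays had a lowest value of 6.70 (animal 13), a median of 7.42 and a highest of 9.38 (animal 09), and at 48 h animals 07, 09, 10, 11 and 13 had 8.17, 8.70, 8.35, 9.96 and 7.55. At 24 h animal 09 stood alone, with the other 5 arrays below all 3 susceptible arrays at 0 h. Animal 11 at 48 h was again the highest of the 30.

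**Figure D1:**
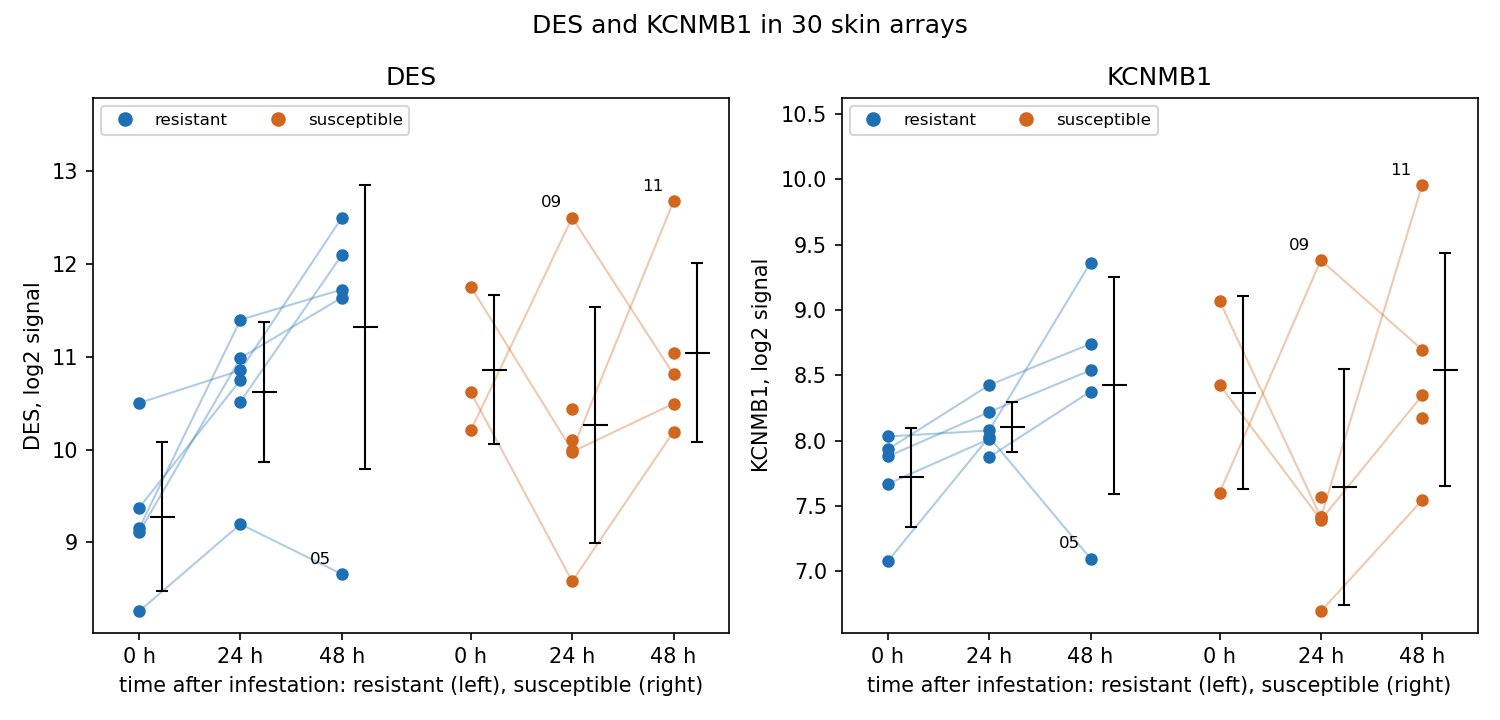
Log2 signal of DES (left panel) and KCNMB1 (right panel) in each array against time after infestation, resistant animals left of susceptible ones. Points are arrays, pale lines join arrays with 1 animal number in the labels, and black bars are the group mean ± SD. Animal 05 at 48 h lies at 8.66 for DES, apart from the other resistant arrays at 11.64 to 12.50.

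Ordered by group mean, DES was highest in resistant skin at 48 h (11.32 ± 1.53, SD, n = 5). Then came susceptible skin at 48 h (11.04 ± 0.97, n = 5), susceptible skin at 0 h (10.86 ± 0.80, n = 3) and resistant skin at 24 h (10.62 ± 0.76, n = 6). Susceptible skin at 24 h (10.27 ± 1.27, n = 6) and resistant skin at 0 h (9.28 ± 0.81, n = 5) had the lowest means. Every gap between neighbours in this order, the last of 0.99 included, was smaller than the larger SD of the 2 groups.

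For KCNMB1 the order was susceptible skin at 48 h (8.54 ± 0.89, SD, n = 5), resistant skin at 48 h (8.42 ± 0.83, n = 5), susceptible skin at 0 h (8.37 ± 0.74, n = 3) and resistant skin at 24 h (8.11 ± 0.19, n = 6). Resistant skin at 0 h (7.72 ± 0.38, n = 5) and susceptible skin at 24 h (7.65 ± 0.90, n = 6) were lowest. Of the 5 gaps only that between resistant skin at 24 h and at 0 h (0.39) was larger than the larger SD (0.38). Both genes thus had 48 h skin of either phenotype at the top, and they differed in whether resistant skin at 0 h or susceptible skin at 24 h came last. Differences between the 6 groups held 32.0% of the variation of DES and 23.7% of that of KCNMB1, so most of it lay among arrays of the same group.

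The comparison of times within resistant skin asks what followed infestation in animals that resist ticks. DES was 2.05 ± 0.63 (SE of the linear model) log2 units higher at 48 h than at 0 h, a 4.13-fold difference of means. At 24 h it was 1.34 ± 0.60 higher than at 0 h (2.53-fold), with 5 of the 6 arrays above every array at 0 h, and at 48 h it was 0.71 ± 0.60 above 24 h. For KCNMB1 the same differences were 0.70 ± 0.42 (1.63-fold), 0.39 ± 0.40 and 0.32 ± 0.40. For both genes the groups overlapped in each of these comparisons. Without animal 05 at 48 h the 48 h against 0 h difference was 2.71 for DES and 1.04 for KCNMB1, and without animal 01 at 48 h it was 1.75 and 0.47. The 48 h against 24 h difference was 1.37 for DES and 0.65 for KCNMB1 without animal 05, and 0.41 and 0.08 without animal 01. The 24 h against 0 h difference of KCNMB1 was 0.23 without the array numbered 05 at 0 h.

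Within the animal numbers of the labels, DES was higher at 24 h than at 0 h in 5 of 5 resistant animals, by 0.35 to 2.25. It was higher at 48 h than at 0 h in 4 of 4, by 0.40 to 2.57 with a median of 2.26, and higher at 48 h than at 24 h in 4 of 5. KCNMB1 was higher in the same numbers of animals, by 0.05 to 0.95 at 24 h and by 0.02 to 1.33 at 48 h against 0 h. These counts depend on the numbers in doubt. With the 3 numbers moved, animal 05 had DES lower by 0.18 at 24 h and by 0.72 at 48 h than at 0 h, and animal 06 had it higher by 2.26 and 3.84. KCNMB1 in animal 05 was then 0.36 higher at 24 h and 0.57 lower at 48 h than at 0 h.

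In susceptible skin the difference of means largest in size was, for both genes, that of 48 h against 24 h. DES was -0.59 ± 0.71 at 24 h against 0 h, 0.18 ± 0.73 at 48 h against 0 h and 0.78 ± 0.60 at 48 h against 24 h. KCNMB1 was -0.72 ± 0.47, 0.18 ± 0.48 and 0.90 ± 0.40 (1.86-fold) in the same comparisons. Within animals, DES was higher at 24 h than at 0 h in 1 of 3 animals, with changes of 2.29 in animal 09, -2.04 in animal 10 and -1.76 in animal 11. KCNMB1 moved the same way in each of the 3, by 1.78, -1.04 and -1.66. From 24 h to 48 h both genes were higher in animals 10, 11 and 13 and lower in animal 09. The 24 h against 0 h difference of DES was -1.04 without susceptible 09 at 24 h and -0.15 without susceptible 11 at 0 h, and its 48 h against 0 h difference was -0.22 without susceptible 11 at 48 h and 0.63 without susceptible 11 at 0 h. The 24 h against 0 h difference of KCNMB1 was -0.37 without susceptible 11 at 0 h, -1.10 without susceptible 09 at 0 h and -0.29 with the animal as a fixed block. Its 48 h against 0 h difference was -0.18 without susceptible 11 at 48 h, -0.21 without susceptible 09 at 0 h and 0.53 without susceptible 11 at 0 h. Leaving out susceptible 11 at 48 h or susceptible 09 at 24 h set the DES difference of 48 h against 24 h at 0.37 or 1.23, and that of KCNMB1 at 0.54 or 1.25.

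The comparison of phenotypes asks how resistant and susceptible skin differ at each time. At 0 h DES was 1.58 ± 0.73 lower in resistant skin, with 4 of its 5 arrays below all 3 susceptible arrays, and resistant animal 01 between 2 of them. KCNMB1 was -0.65 ± 0.48, and 1 of its 5 resistant arrays lay below all 3 susceptible arrays. At 24 h the differences were 0.35 ± 0.58 for DES and 0.46 ± 0.38 for KCNMB1. At 48 h they were 0.28 ± 0.63 and -0.12 ± 0.42. The 0 h difference rests on 3 susceptible arrays: without animal 11 it was -1.13 for DES and -0.30 for KCNMB1. At 24 h the DES difference was 0.80 without susceptible animal 09 and 0.01 without susceptible animal 10, and that of KCNMB1 was 0.81 without susceptible animal 09 and 0.27 without susceptible animal 13. At 48 h single arrays also set it, since DES was at 0.95 without resistant animal 05 and at -0.01 without resistant animal 01. KCNMB1 at 48 h was at 0.23 without susceptible animal 11.

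The response over time, resistant minus susceptible, was 1.93 ± 0.93 at 24 h and 1.86 ± 0.96 at 48 h for DES. For KCNMB1 it was 1.11 ± 0.62 and 0.53 ± 0.64. Without susceptible 11 at 0 h the 24 h and 48 h values were 1.49 and 1.41 for DES and 0.76 and 0.18 for KCNMB1. Leaving out 1 array at a time set the 48 h value of KCNMB1 between 0.18 and 0.91, the highest without susceptible 09 at 0 h. Each of these values uses the same 0 h arrays as the comparisons above.

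Array by array, DES and KCNMB1 went together. Pearson's r was 0.81 and Spearman's rho 0.85 over the 30 arrays, which share animals and 1 scaling. Without the 2 arrays farthest from the median of DES, resistant 05 at 0 h and susceptible 11 at 48 h, r was 0.77. It was 0.88 over the 16 resistant arrays and 0.85 over the 14 susceptible ones. As r was also 0.81 over deviations from the 6 group means, the likeness is one among arrays of a group as well as between groups.

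**Figure D2:**
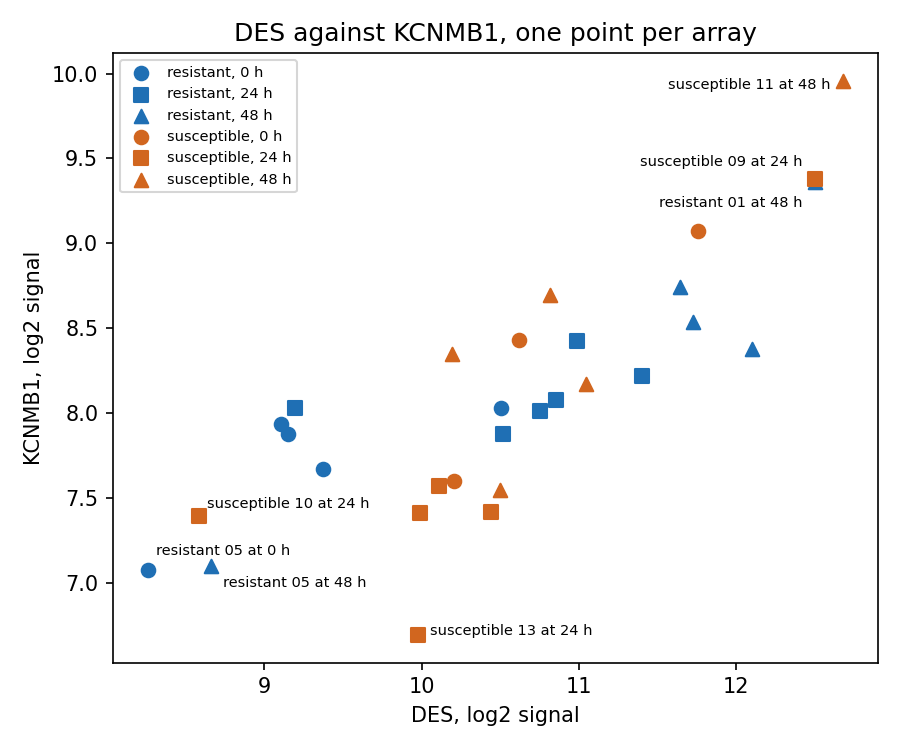
Log2 signal of KCNMB1 against that of DES, 1 point for each of the 30 arrays, colour for phenotype and shape for time. Susceptible 11 at 48 h, susceptible 09 at 24 h and resistant 01 at 48 h are at the top right, and resistant 05 at 0 h and 48 h at the bottom left (r = 0.81).

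Among the genes most like DES over the 30 arrays were several for proteins of muscle and of actin filaments. The highest r, 0.92, belonged to SPARCL1, a secreted matrix glycoprotein. Next were MYH11, the heavy chain of smooth muscle myosin (0.89), LMOD1, leiomodin, which nucleates actin filaments (0.89), and PLN, phospholamban, which restrains the calcium pump of the sarcoplasmic reticulum (0.89). TPM2, a tropomyosin (0.86), FLNC, filamin C, an actin crosslinker of muscle (0.86), RASL12 (0.86) and VCL, vinculin, which links actin to the membrane (0.85), completed the 8. Over deviations from the group means these r were 0.80 to 0.93. Such values follow in part from the choice, since the 8 were picked by r over the same arrays.

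For KCNMB1 the first was MCAM, an adhesion molecule of vascular mural and endothelial cells (r = 0.86). SMARCD3, a subunit of a chromatin remodelling complex, had 0.85, PLN and LMOD1 had 0.84, and LDLRAD4 and NDRG4 had 0.83 and 0.82. TCAP, telethonin, and CKM, the muscle form of creatine kinase, had 0.83 each and are known best from striated muscle. Of the 8 genes, 2 (PLN and LMOD1) were shared with DES. The values of these genes in resistant skin at 48 h against 0 h ran from 0.31 ± 0.18 (SE) for VCL to 1.63 ± 0.57 for PLN, all smaller than that of DES. As the genes were picked by r over the same arrays, group differences included, positive values follow in part from the choice. SPARCL1 differed by 1.16 ± 0.54, TCAP by 1.01 ± 0.42, MCAM by 0.84 ± 0.31 and MYH11 by 0.55 ± 0.33.

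Of 43 other smooth muscle genes written in a list of contractile and associated proteins, 31 were named on the array and 30 were kept. Their mean followed DES (r = 0.91) and KCNMB1 (r = 0.85) over the 30 arrays. Singly, 18 of the 30 (60.0%) had r above 0.5 with DES and 16 (53.3%) with KCNMB1. Over all other 7014 genes the shares were 3.08% and 3.81%. The list and both genes had the same 2 arrays at the top, susceptible 11 at 48 h and susceptible 09 at 24 h.

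In resistant skin at 48 h against 0 h, 25 of the 30 genes had a positive difference, with a median of 0.35, where 47.3% of all genes were positive and their median was -0.02. With limma and Benjamini-Hochberg adjustment over all probe sets, 0 of the 30 passed 0.05, and 0% of all probe sets did. At an unadjusted p under 0.05 there were 6 higher and 0 lower, against 4.95% of all probe sets higher (1522 in either direction). With the animal as a fixed block the number of probe sets called was 84 in place of 0, and the list still had 0. The 2 highest were TPM2, at 1.14 ± 0.31 (SE, adjusted p = 0.274), and FLNC, at 0.90 ± 0.31 (adjusted p = 0.321). The 2 lowest were CRYAB, a chaperone that binds desmin (-0.39 ± 0.23), and ACTN1, a non-muscle alpha-actinin (-0.22 ± 0.19). ACTA2, smooth muscle actin, was at 0.55 ± 0.38, CNN1, calponin, at 0.67 ± 0.22, and TAGLN, transgelin, at 0.57 ± 0.32. DES, at 2.05, had a larger value than each of the 30, and KCNMB1, at 0.70, lay among them.

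At 24 h against 0 h in resistant skin the list was nearer 0, with 22 of 30 positive, a median of 0.09 and 0 at an unadjusted p under 0.05 (4.72% of all probe sets, 652). From 24 h to 48 h 26 of 30 were positive, with a median of 0.30, 6 of them higher at an unadjusted p under 0.05 (4.77% of all probe sets higher, 1332 in either direction). Over all genes, 46.8% were positive at 24 h against 0 h and 48.1% at 48 h against 24 h. By the adjusted p 0 of the list passed in both comparisons, as did 0% of all probe sets. DES had more of its 48 h difference in place by 24 h (1.34 of 2.05) than the median of the list (0.09 of 0.35). This contrast was not tested and was not particular to DES. KCNMB1 had 0.39 of 0.70 in place. Of the 8 genes most like DES, PLN had 0.92 of 1.63, FLNC 0.50 of 0.90, VCL 0.17 of 0.31 and SPARCL1 0.60 of 1.16. The others had smaller shares: TPM2 0.45 of 1.14, RASL12 0.15 of 0.61, LMOD1 0.16 of 0.70 and MYH11 0.10 of 0.55.

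In susceptible skin the list was lower at 24 h than at 0 h in 25 of 30 genes (median -0.19, 3 lower at an unadjusted p under 0.05, against 1.33% of all probe sets lower and 318 in either direction). Without susceptible 11 at 0 h the median was -0.04 and 12 genes were higher. At 48 h against 0 h 20 of 30 were higher, with a median of 0.07 and 0 at an unadjusted p under 0.05 (0.949% of all probe sets, 131). At 48 h against 24 h 25 were higher, with a median of 0.27 and 6 at an unadjusted p under 0.05 (1.25% of all probe sets higher, 259 in either direction). ACTA2 was at 0.75 ± 0.36 (SE) there and TPM2 at 0.63 ± 0.30. The share of all genes that was higher was 44.8% at 24 h against 0 h, 47.5% at 48 h against 0 h and 54.9% at 48 h against 24 h. The adjusted p called 0 of the list and 0% of all probe sets in each of the 3 comparisons.

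Between phenotypes at 0 h, 25 of the 30 genes were lower in resistant skin (median -0.33, and 0.00 over all genes), 4 of them at an unadjusted p under 0.05, against 3.14% of all probe sets lower and 623 in either direction. The 2 lowest were FLNC (-0.78 ± 0.36, SE) and TPM2 (-0.76 ± 0.36), and the 2 highest were KCNMA1 (0.36 ± 0.26) and SMOC2 (0.25 ± 0.27). Without susceptible 11 the median was -0.20 and 8 genes were higher in place of 5. At 24 h 15 were higher and 15 lower, with a median of 0.01 and 0 at an unadjusted p under 0.05 (4.4% of all probe sets, 608). At 48 h 14 were higher, with a median of -0.01, 2 higher and 2 lower at an unadjusted p under 0.05 (4.62% of all probe sets higher and 5.45% lower, 1391 in all). Without resistant 05 at 48 h the median was 0.22 and 22 were higher. The share of all genes that was higher in resistant skin was 50.9% at 0 h, 53.3% at 24 h and 46.0% at 48 h. The adjusted p called 0 of the list at each time and 0% of all probe sets at 0 h and 24 h, and 0.0145% (2 probe sets) at 48 h.

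**Figure D3:**
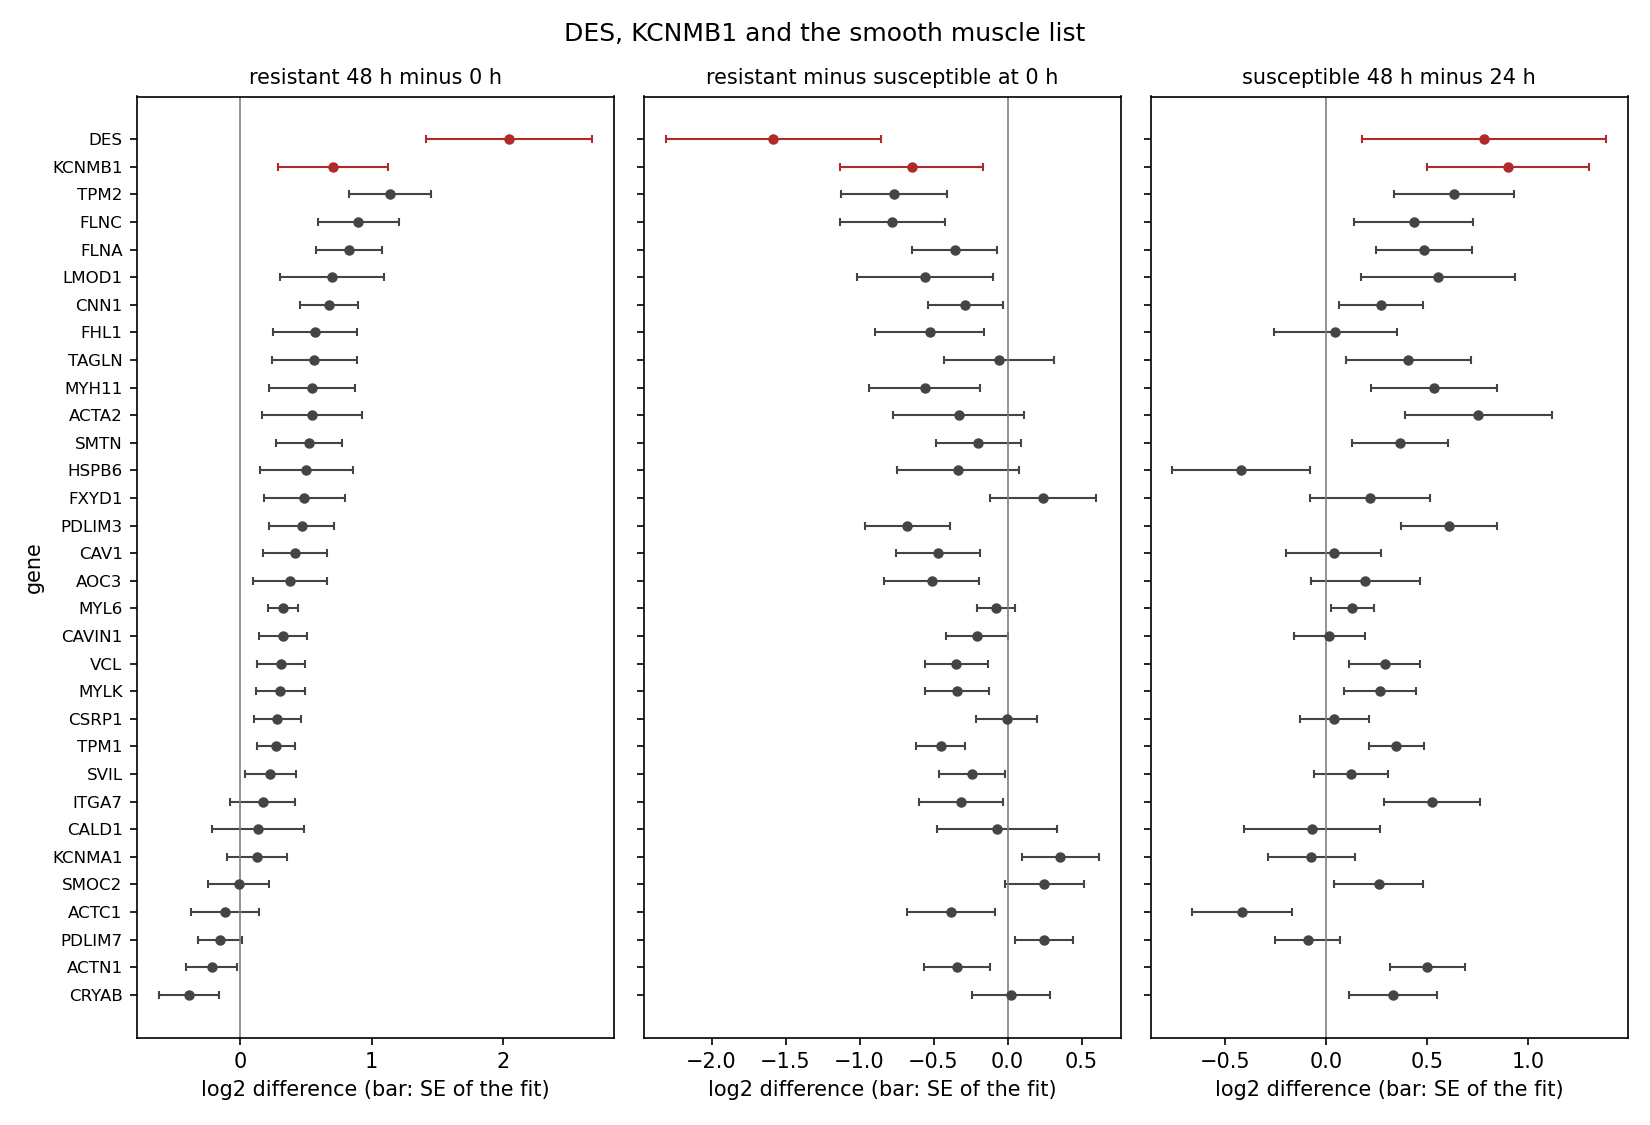
Log2 difference of DES, KCNMB1 (red) and the 30 other smooth muscle genes (grey) in 3 comparisons, with bars of 1 SE of the linear model. DES lies at 2.05 in resistant skin at 48 h against 0 h and at -1.58 in resistant against susceptible skin at 0 h, and KCNMB1 at 0.90 in susceptible skin at 48 h against 24 h.

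The other kept genes of the BK channel, KCNMA1 and KCNMB4, did not run with KCNMB1. KCNMA1, the pore of the channel, was at 0.13 ± 0.23 (SE) in resistant skin at 48 h against 0 h and had r = 0.26 with KCNMB1. KCNMB4, another beta subunit, was at -0.31 ± 0.15, with r = -0.18. At 0 h the phenotypes differed by 0.36 ± 0.26 for KCNMA1 and 0.44 ± 0.17 for KCNMB4, both higher in resistant skin, where KCNMB1 was at -0.65. Genes of calcium release and uptake were closer to KCNMB1. IRAG1, which restrains calcium release through the inositol trisphosphate receptor, had r = 0.78 and a difference of 0.64 ± 0.29 at 48 h against 0 h, and ITPR1, that receptor, had 0.62 and 0.39 ± 0.22. PLN was at 1.63 ± 0.57 there and at -1.62 ± 0.66 in resistant against susceptible skin at 0 h. ATP2A2, the calcium pump that PLN restrains, was at 0.01 ± 0.16 and KCNJ8, a potassium channel of vascular muscle, at 0.14 ± 0.31. Of the 7 kept genes of this list 6 were positive in resistant skin at 48 h against 0 h (median 0.14). At an unadjusted p under 0.05, 2 were higher and 1 lower (4.95% of all probe sets higher and 6.08% lower). By the adjusted p 0 of the 7 passed, as did 0% of all probe sets.

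The partners of desmin were also mixed. VIM, vimentin, the intermediate filament protein of mesenchymal cells, was at 0.42 ± 0.13 (SE) in resistant skin at 48 h against 0 h. SGCB, a sarcoglycan of the membrane complex, was at 0.48 ± 0.25, and NES, nestin, at -0.16 ± 0.34. With CRYAB they made 2 positive and 2 negative values of 4, with a median of 0.13. Their r with DES ran from -0.19 (NES) to 0.52 (VIM). At an unadjusted p under 0.05, 1 of them was higher (4.95% of all probe sets higher), and 0 were called by the adjusted p, as were 0% of all probe sets. Among 4 transcription regulators of smooth muscle, GATA6 was nearest to DES, with r = 0.73, a difference of 1.18 ± 0.51 in resistant skin at 48 h against 0 h and -1.70 ± 0.59 in resistant against susceptible skin at 0 h. MEF2C was at 0.47 ± 0.23 and -0.69 ± 0.27 and KLF4 at -0.10 ± 0.22 and 0.03 ± 0.26 in the same comparisons. The r with DES was 0.52 for MEF2A, 0.21 for MEF2C and -0.35 for KLF4. By the adjusted p 0 of the 4 were called in both comparisons, as were 0% of all probe sets. At an unadjusted p under 0.05, 1 was higher at 48 h against 0 h (4.95% of all probe sets higher). Between phenotypes at 0 h 2 were lower (3.14% lower).

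DES is also a gene of striated muscle, which lies beneath the skin. Of 24 striated muscle genes named on the array, 16 lay below the median of every array, among them MB, MYH1, TNNT1, TNNT3, MYL1, MYL2, NEB, ACTN2 and ATP2A1. CKM was at or above the median in 30 arrays and TCAP in 28. The 7 kept genes had a median of 0.17 in resistant skin at 48 h against 0 h, and their mean had r = 0.67 with DES and 0.56 with KCNMB1. Singly they were mixed: 2 of the 7, TCAP and CKM, had r above 0.5 with DES (0.81 and 0.72). The median r was 0.33 with DES and 0.29 with KCNMB1. ACTA1, a muscle actin, was just under that cut, with r = 0.498 with DES and 0.23 with KCNMB1. In resistant skin its mean was 6.12 ± 0.52 (SD) at 0 h and 7.49 ± 1.75 at 48 h. It reached the array median in 11 arrays, and its weight in the list mean was not tested. MYOZ1 had r = -0.30 with DES and -0.33 with KCNMB1. TNNC1, the troponin C of slow and cardiac muscle, had r = -0.63 with DES and a difference of -0.85 ± 0.40 (SE) in resistant skin at 48 h against 0 h. MYH7, the slow myosin heavy chain, and MYL11, a fast myosin light chain, were at or above the median in 30 arrays, with r = 0.33 and 0.27 with DES.

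Genes of other cell types were set beside DES and KCNMB1 in the same arrays. The mean of 6 pericyte and mural cell genes had r = 0.75 with DES and 0.76 with KCNMB1, that of 10 endothelial genes 0.31 and 0.47, and that of 11 fibroblast genes 0.20 and 0.22. The mean of 7 macrophage genes had 0.34 and 0.27, and that of 8 keratinocyte genes -0.25 and -0.28. For 2 Schwann cell and nerve genes r was 0.49 and 0.47. For 4 adipocyte genes it was 0.28 and 0.23, and for 4 sweat gland and myoepithelium genes -0.19 and -0.32. Singly, the pericyte genes had a median r of 0.42 with DES and 0.40 with KCNMB1, from 0.14 and 0.10 (ANPEP) to 0.85 and 0.86 (MCAM), and 3 and 2 of the 6 had r above 0.5. In resistant skin at 48 h against 0 h the medians were 0.34 for pericyte genes (6 of 6 positive), 0.34 for endothelial genes (9 of 10), 0.92 for macrophage genes (7 of 7) and -0.55 for keratinocyte genes (2 of 8). They were 0.20 for fibroblast genes (10 of 11), 0.25 for Schwann cell genes (2 of 2), -0.27 for adipocyte genes (1 of 4) and -0.27 for sweat gland genes (0 of 4). Over all genes, 47.3% were positive there. The mean log2 signal of the pericyte genes in an array ran from 8.49 to 9.24 in resistant skin at 48 h and from 8.39 to 8.77 at 0 h. That of the keratinocyte genes ran from 9.77 to 11.90 and from 11.49 to 11.90. In resistant against susceptible skin at 0 h pericyte genes had a median of -0.30 (5 of 6 negative) and endothelial genes of -0.47 (9 of 10 negative). Keratinocyte genes were at -0.25 (6 of 8 negative), fibroblast genes at -0.07 (7 of 11) and macrophage genes at 0.16 (2 of 7). Schwann cell genes were at 0.04 (1 of 2), sweat gland genes at 0.31 (1 of 4) and adipocyte genes at 0.32 (0 of 4). Over all genes, 50.9% were higher in resistant skin at 0 h. The adjusted p called 0 of each of these lists in both comparisons, and 0% of all probe sets. At an unadjusted p under 0.05, 6 macrophage, 3 endothelial, 1 pericyte and 1 keratinocyte gene were higher at 48 h against 0 h (4.95% of all probe sets). There 2 keratinocyte genes were lower (6.08%). Between phenotypes at 0 h 3 endothelial, 1 pericyte and 1 keratinocyte gene were lower in resistant skin (3.14%). The other lists had 0 in both comparisons. The part of the makeup of the biopsies in the DES and KCNMB1 values was not tested.

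**Figure D4:**
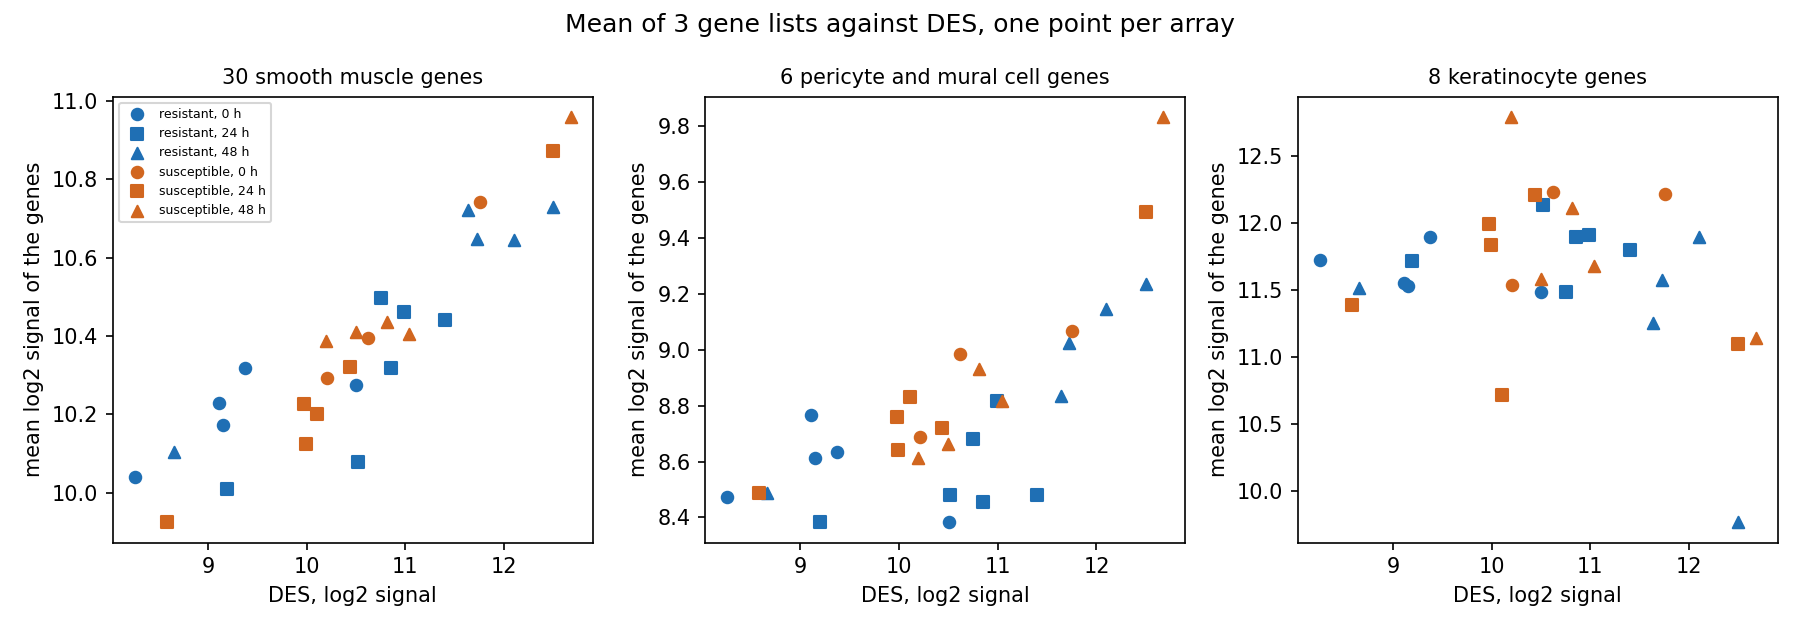
Mean log2 signal of 30 smooth muscle genes, 6 pericyte and mural cell genes and 8 keratinocyte genes in each array against DES (log2 signal), colour for phenotype and shape for time. The smooth muscle mean follows DES (r = 0.91), the pericyte mean less closely (r = 0.75), and the keratinocyte mean does not (r = -0.25).

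Most of the arrays that stood apart for DES and KCNMB1 did so for much of the smooth muscle list. Susceptible 09 at 24 h had the highest signal of its group of 6 for 21 of the 30 genes (70.0%), against 16.1% of all other genes. Susceptible 11 was the highest of 5 at 48 h for 20 (66.7%, against 25.6%) and the highest of 3 at 0 h for 24 (80.0%, against 34.0%). Resistant 05 was the lowest of 5 at 48 h for 20 (66.7%, against 23.4%), and susceptible 10 at 24 h the lowest of 6 for 16 (53.3%, against 16.2%). Resistant 01 at 48 h, which came after susceptible 11 at 48 h and susceptible 09 at 24 h in both DES and KCNMB1, was the highest of 5 for 9 of the 30 genes, against 21.1% of all other genes. It was the lowest of its group for 7 of 8 keratinocyte genes, and in it the mean of the keratinocyte genes was 9.77, where the other 29 arrays had 10.72 to 12.79. Susceptible 11 at 48 h also had the highest signal of its group for 9 of 10 endothelial genes.

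The share of the variation within groups that lay between animals was 60.9% for DES and 49.4% for KCNMB1 over the 27 arrays of 10 animals with more than 1 array, against a median of 45.2% over all probe sets. With the 3 numbers moved it was 49.2% and 45.3%, against a median of 48.9%. The larger share of DES under the numbers of the labels thus rests on the arrays in doubt.

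RNA quality was read from control probe sets at the 3′ and 5′ ends of the same transcript. The 3′ minus 5′ difference of GAPDH lay between 0.19 and 1.60 log2 units and had r = -0.08 with DES and -0.07 with KCNMB1. That of the actin control had r = 0.52 with DES and 0.23 with KCNMB1. In resistant skin at 48 h it was 4.86, 4.40, 4.75, 1.16 and 4.05 in animals 01, 02, 03, 05 and 06 (median 4.40). In resistant skin at 0 h it ran from 1.92 to 3.43, with a median of 2.63. As for DES, animal 05 was the only resistant array at 48 h that did not lie above every resistant array at 0 h. The annotation names that control ACTA1, a muscle actin, and its part in the DES values was not tested.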

How the data were processed

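Per the labels' protocols, RNA of biopsies held in RNAlater was taken up in Trizol and cleaned with an RNeasy kit, and 50 ng was amplified and labelled with biotin. The deposited values are the authors' log2 signals. MAS5 made them, per the submitters' processing notes, which name no version. On the linear scale every array had a 2% trimmed mean of 500, and array medians lay between 7.16 and 7.40. No normalization was added. The array has 24128 probe sets, 112 of them controls. Of the other 24016, the 13809 that reached the array median in at least 3 arrays were tested. Detection calls are not used here. No genome coordinates are printed. The annotation gave 13292 probe sets 1 symbol, 86 several and 10638 none, and symbols were updated by gene ID. A gene was represented by its kept probe set with the highest mean.

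All 30 arrays entered 1 fit of the 6 group means (limma 3.58.1, R 4.3.3, with lmFit and eBayes using an intensity trend). This fit took arrays of the same animal at different times as independent. The SEs and p of the time comparisons therefore do not use the pairing. Tests were two-sided and adjusted by Benjamini-Hochberg over 13809 probe sets at 0.05. The fit was tried on simulated data with independent noise in each array and probe set. Such data hold no shared animals and no genes that vary together, so those features were not checked. Plots used matplotlib 3.10.9 in Python 3.11.15.

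Besides DES and KCNMB1, the text names the 8 genes most like each by Pearson's r, the 2 highest and 2 lowest of the smooth muscle list, and kept partners of desmin and the BK channel. Other named genes were chosen after their values were seen. The members and lists were chosen with earlier results of these data known. The pairing of arrays by animal comes from the titles. It was checked by likeness over probe sets that tell animals apart, and the correlation within an animal was 0.14 with the numbers of the labels and 0.21 with 3 moved. Alternatives tried were an offset of 16, quantile normalization, median centring, no filter, the animal as a random or fixed block, array weights, only the groups compared, and leaving out each array. The 3 moved numbers, the fit without the 3 arrays numbered resistant 05, and leaving out each array in the difference of responses were added after seeing the data.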

Additional observations from a re-analysis of the deposited data

Results flagged for a closer look

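DES in resistant 05 at 48 h, at 8.66, was far below the other 4 arrays of its group, the nearest of which had 11.64. KCNMB1 in susceptible 09 at 24 h, at 9.38, was far above the other 5 arrays of its group, the nearest of which had 7.57. Both gaps were past Dixon's 95% limit for a group of that size. They were 2 of the 20 highest and lowest values of 10 groups (5 groups of arrays for each gene), and chance passes the limit in about 1 of 20 groups. These arrays were known to stand apart when the genes were chosen, so the gaps are a description. Groups of 3 were not compared with the limit. Susceptible 11 at 48 h, the highest of the 30 arrays for both genes, did not pass it.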

How the results depend on the processing

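Of 360 values of DES and KCNMB1 under alternatives, 360 lay within 1 SD of the value given and 11 had the other sign. The SD is that of single arrays, pooled within the groups compared, which is a wide limit. By it, DES between phenotypes at 48 h counted as within 1 SD at 0.95 in place of 0.28. The fits with no filter and with only the groups compared cannot change a difference of group means. The count is therefore a weak check. With array weights the susceptible 48 h against 0 h difference was -0.12 for DES and -0.19 for KCNMB1. With the animal as a random replicate block DES was 2.03 and KCNMB1 0.71 in resistant skin at 48 h against 0 h. With it as a fixed block KCNMB1 was 0.62 in susceptible skin at 48 h against 0 h. The smooth muscle list had 0 genes called in 180 of 180 counts. The number of probe sets called was not stable. In resistant skin at 48 h against 0 h it was 2 with the random block, 84 with the fixed block, 108 and 4 with 3 animal numbers moved (fixed and random), and 0 to 2 when 1 array was left out. At 24 h against 0 h it was 1 without the 3 arrays numbered resistant 05 and 0 to 2 with 1 array left out, and at 48 h against 24 h it was 16 and 5 with 3 numbers moved (fixed and random) and 0 to 1 with 1 array left out. Between phenotypes at 48 h it was 10 after median centring, 4 without the filter, 0 with array weights, 0 with only the arrays compared, 5 with 3 numbers moved as a random block, and 0 to 14 with 1 array left out. The causes were not tested. Leaving out 1 array moved DES in resistant skin at 48 h against 0 h between 1.75 and 2.71 and KCNMB1 between 0.47 and 1.04. The planned use of another probe set of each gene was not run, since each had 1. The dimmer KCNMB1 signal, below the array median in 3 arrays, limits its low values.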
